A study of Homo sapiens with 19 samples.

Results

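RAB GTPase genes encode the small switch proteins that mark the membranes of the secretory and endocytic routes. They were taken as every gene whose symbol is RAB followed by a number and at most 1 letter from A to D, which gave 61 genes in each table, of 25365 genes in OCI-LY10, 25267 in TMD8 and 25266 in SUDHL2. RAB-like genes and RAB effectors with longer symbols are not among the 61. The rule reads symbols and no measured value.

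The study asked about EGR1, an immediate early transcription factor, in diffuse large B-cell lymphoma. OCI-LY10, TMD8 and SUDHL2 cells, established lines of its ABC (activated B-cell) form, carried a doxycycline-inducible short hairpin RNA. The hairpin was a control (sc4), shEGR1#8 or shEGR1#9, and the cells of every group, the control included, received 20 ng/ml doxycycline for 2 days. RNA was sequenced in 15 libraries, 3 per group in OCI-LY10 and 1 per group under each of the TMD8 and SUDHL2 labels. No source used here says whether the transduced cells were clones or pools, or whether replicate libraries stem from independent cultures. The p-values therefore measure the spread between libraries, which may be technical.

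A RAB protein cycles between a GDP-bound form, kept soluble by a GDP dissociation inhibitor, and a GTP-bound form that sits on a membrane through prenyl groups and recruits effectors. Exchange factors (DENN-domain proteins and others) load GTP, and GTPase-activating proteins, mostly of the TBC family, end the signal. In B cells these routes carry the internalised B-cell receptor and its antigen to late endosomes and move new membrane and secretory proteins to the cell surface.

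The values were read as FPKM, fragments scaled to gene length and library size, although no label or header names the unit. On that reading, levels can be set side by side between genes. Several whole-table facts bear on what follows. EGR1 itself showed no decrease with either EGR1 hairpin label in OCI-LY10. It stood at 8.57, 9.59 and 12.3 FPKM in the controls, 10.04, 11.4 and 20.5 with shEGR1#8 and 10.8, 11.8 and 22.7 with shEGR1#9. It was 7.31 FPKM in the TMD8 control against 10.8 and 9.95, and 17.0 in the SUDHL2 control against 13.7 and 15.4. Directions below therefore belong to the labels. All 9 B-cell markers reached a mean of 1 FPKM in every table, while CD2, CD3G, CD4, NKG7, GNLY and KLRD1, markers of T and NK cells, were at 0 in all OCI-LY10 libraries. Library correlations (Pearson's r over 11810 genes, short RNA genes left out) were 0.980 or more within OCI-LY10. The TMD8 control stood apart from its own hairpin libraries (r of 0.950 and 0.947), which lay closer to the SUDHL2 libraries (0.958 to 0.976). Short RNA genes took 36.3% of the FPKM in the TMD8 control, 63.1 and 60.5% in its hairpin libraries, 53.6 to 55.3% in SUDHL2 and at most 0.613% in OCI-LY10.

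In OCI-LY10, the family was led by a few members of the lysosomal and secretory routes. RAB7A, which drives fusion of late endosomes with lysosomes, averaged 164 FPKM over the 9 libraries. RAB8A, which works in transport to the cell surface, averaged 104 FPKM, and RAB1B, which works between endoplasmic reticulum and Golgi, 90.8 FPKM. These 3 genes held on average 37.9% of all RAB FPKM. RAB5C, an early endosome RAB, was the only other member at 50 FPKM or more, with a mean of 55.4. A further 20 members lay from 10 to 50 FPKM, 16 from 1 to 10 and 21 below 1. RAB19, RAB31, RAB32, RAB36, RAB37, RAB3C and RAB41 were listed at 0 in all 9 libraries. A value of 0 in such a table can be a failed estimate.

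**Figure D1:**
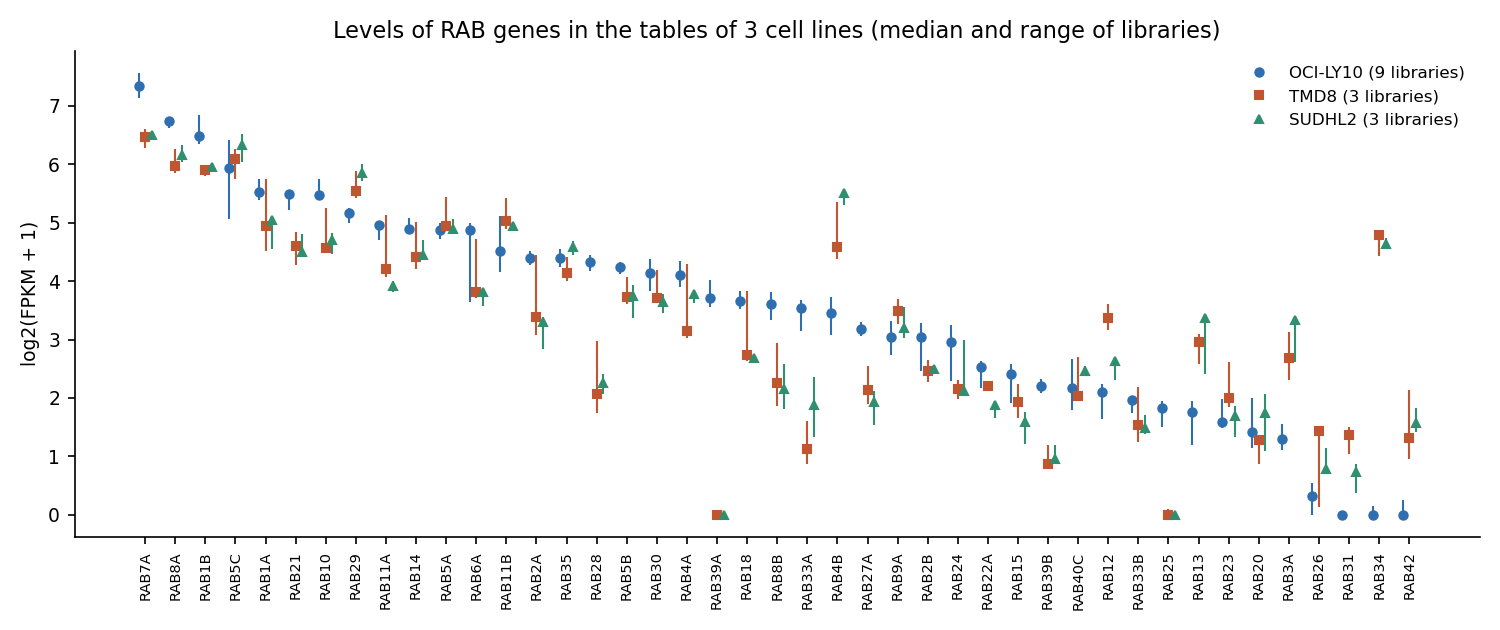
RAB gene levels in the 3 tables, as the median log2(FPKM + 1) of the libraries of each table (points) with the lowest to highest library (lines). Members whose median stayed below 1 FPKM in every table, RAB43 among them, are left out. RAB7A is highest in OCI-LY10, and RAB39A and RAB34 show the sharpest contrast between OCI-LY10 and the others.

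By role, all 8 RAB genes of the recycling endosome averaged at least 1 FPKM, with RAB11A (29.3 FPKM) and RAB14 (29.1 FPKM) highest. At the early endosome 6 of 8 did, and between endoplasmic reticulum and Golgi 10 of 15. Among the members of exocytosis and secretion 7 of 13 reached 1 FPKM on average. RAB27A, which docks secretory granules and lysosome-related organelles, averaged 8.07 FPKM, while its paralogue RAB27B did not exceed 0.0196 FPKM in any OCI-LY10 library. RAB3A, a RAB of regulated exocytosis, stood at 1.15 to 1.95 FPKM in OCI-LY10. Its paralogues RAB3B, RAB3C and RAB3D stayed below 1 FPKM in every OCI-LY10 library. RAB38 and RAB32, known for the melanosome, did so too.

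Some members told the cell lines apart. The tables may have been normalised separately, so these levels are descriptions without a test. RAB39A, a RAB of the phagosome and endosome, stood at 10.7 to 15.2 FPKM in OCI-LY10 and at 0 in all 6 other libraries. RAB25, an epithelial relative of RAB11, stood at 1.83 to 2.85 FPKM in OCI-LY10 and at no more than 0.0664 elsewhere. EPCAM, another epithelial gene, ran alongside at 6.05 to 8.65 FPKM in OCI-LY10 and 0 elsewhere. KRT8 and KRT18, also epithelial genes, went the other way. KRT8 was at most 0.0346 FPKM in OCI-LY10, 3.90 to 6.70 in TMD8 and 4.27 to 5.94 in SUDHL2. KRT18 had medians of 0, 0.307 and 0.717 FPKM in OCI-LY10, TMD8 and SUDHL2. RAB34, which acts at the Golgi and in lysosome positioning, had the opposite pattern, at 20.6 to 26.8 FPKM under the TMD8 label, 23.6 to 25.6 under the SUDHL2 label and at most 0.111 in OCI-LY10. RAB4B, a recycling RAB, stood at 7.48 to 12.2 FPKM in OCI-LY10 and at 38.7 to 45.4 in SUDHL2, and TMD8 reached from 19.8 to 39.9. RAB28 was higher in OCI-LY10, at 17.0 to 20.8 FPKM against 2.35 to 6.88 and 3.19 to 4.33. TMD8 and SUDHL2 libraries were close to each other for RAB34, RAB39A and RAB25.

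In OCI-LY10 the hairpin comparison was small for most of the family. RAB13, RAB15 and RAB21 rose and RAB43 fell in the libraries of both EGR1 hairpins against control, which makes 4 of 41 tested members called. A gene was tested at 1 FPKM or more in at least 3 of the 9 libraries and called at a limma adjusted p under 0.05 over all 10612 genes tested. Of all genes tested, 8.56% were called, 5.84% rising and 2.71% falling, so the members' 9.76% was close to the background. The other 20 members were too low to test. RAB43 passed the filter through the control libraries only, so its count as the member that fell is no support for a fall. The median log2 difference of the 41 members, on the log2(FPKM + 1) scale used for every difference here, was 0.08, and that of all genes 0.03. At an unadjusted p under 0.05 there were 16 members (39.0%) and 2767 of all genes (26.1%).

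Marker lists moved with the labels as well, and their part in the RAB differences was not tested. The summed level of the 9 B-cell markers was 2172 to 2323 FPKM in the OCI-LY10 controls, 2484 to 2792 with shEGR1#8 and 2510 to 2625 with shEGR1#9. The 6 myeloid markers summed to 0.674 to 1.17, 1.38 to 1.72 and 1.90 to 2.07 FPKM, with only CD68 reaching a mean of 1 FPKM and LYZ, ITGAM and MPO at 0. The 6 fibroblast and epithelial markers, of which COL1A1 and DCN were at 0 and EPCAM alone reached 1 FPKM, summed to 6.10 to 6.31, 6.78 to 8.68 and 6.96 to 7.88 FPKM. The T and NK cell markers, none of which reached a mean of 1 FPKM, summed to 0.0388 to 0.0888, 0.0631 to 0.0933 and 0.187 to 0.357 FPKM. In such bulk samples fewer cells of a type and less RNA per cell cannot be told apart.

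The RABs that rose belong to separate routes. RAB21 directs integrin receptors and other cargo into early endosomes. RAB21 measured 36.2, 36.1 and 37.4 FPKM in the controls, 45.0, 45.1 and 44.5 with shEGR1#8 and 45.9, 42.5 and 43.7 with shEGR1#9. All 6 hairpin libraries lay above all 3 controls, and the SD within a group was at most 1.72 FPKM. The log2 difference was 0.27 (SE 0.044, 95% interval 0.18 to 0.37, limma adjusted p = 0.00739).

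RAB15 works in the recycling endosome. It measured 3.34, 2.76 and 3.05 FPKM in the controls, 4.06, 4.34 and 4.86 with shEGR1#8 and 4.70, 5.0 and 4.50 with shEGR1#9. The groups did not overlap, and the hairpin libraries were alike. The log2 difference was 0.46 (SE 0.071, 95% interval 0.30 to 0.62, limma adjusted p = 0.00631).

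RAB13 carries cargo from the Golgi and recycling endosomes to the plasma membrane and is best known from tight junctions. It measured 1.29, 1.45 and 1.61 FPKM in the controls, 2.56, 2.21 and 2.84 with shEGR1#8 and 2.85, 2.64 and 2.37 with shEGR1#9. Again no hairpin library reached down to a control. The log2 difference was 0.55 (SE 0.081, 95% interval 0.36 to 0.73, limma adjusted p = 0.00556). RAB13, RAB15 and RAB21 were called in all 18 alternative analyses run for each, among them the 9 that leave out 1 library.

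RAB20, an early endosome and phagosome RAB, differed mainly in 1 hairpin group. It measured 1.25, 1.43 and 1.20 FPKM in the controls, 2.84, 1.83 and 3.00 with shEGR1#8 and 1.67, 1.44 and 1.98 with shEGR1#9. All hairpin libraries exceeded the controls, by little in shEGR1#9 replicate 2. RAB20 was called with shEGR1#8 alone (log2 difference 0.62, limma adjusted p = 0.0376) and not with shEGR1#9 (0.23, limma adjusted p = 0.394) or with both (0.42, limma adjusted p = 0.0615). The difference between the hairpins for RAB20 was -0.39 on the log2 scale, and no member had a limma adjusted p below 0.99967 in that comparison. Without shEGR1#8 replicate 2, RAB20 was called with both hairpins (0.50, limma adjusted p = 0.0119). Its call with shEGR1#8 alone was lost without a filter, with quantile normalization, with a replicate block, with array weights and without the replicates numbered 3. It was also lost without any 1 control, without shEGR1#8 replicate 1 or 3 and without shEGR1#9 replicate 1 or 2.

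**Figure D2:**
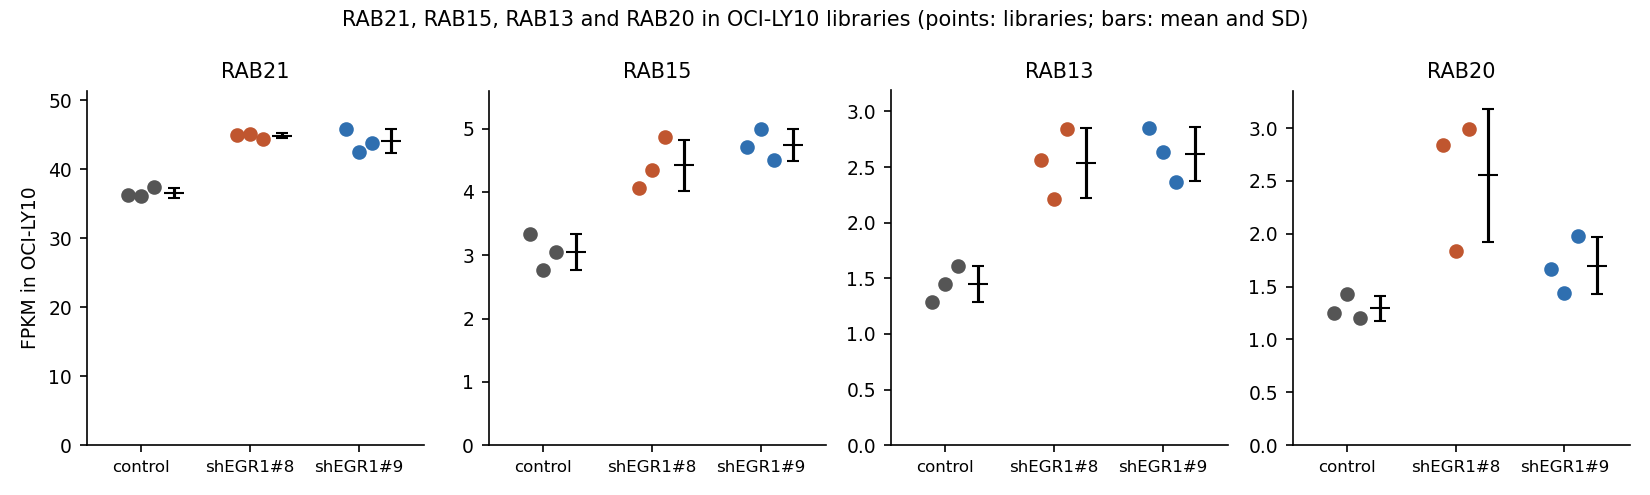
FPKM of RAB21, RAB15, RAB13 and RAB20 in the 9 OCI-LY10 libraries, by hairpin label (points are libraries, bars the group mean with SD). For RAB21, RAB15 and RAB13 every hairpin library lies above every control, while shEGR1#9 replicate 2 of RAB20, at 1.44 FPKM, sits just above the highest control at 1.43.

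RAB43, a RAB of the Golgi, carried the largest difference, and its call did not hold when an overlapping record was added. Its own record measured 4.94, 4.79 and 2.21 FPKM in the controls, 0, 0.157 and 0.448 with shEGR1#8 and 0.235, 0.236 and 0.0689 with shEGR1#9. All 6 hairpin libraries lay far below the controls, through which alone the record passed the filter. The log2 difference was -2.02 (SE 0.204, limma adjusted p = 0.000769) with a pseudocount of 1 and -3.92 with 0.1.

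RAB43 overlaps a readthrough gene, ISY1-RAB43, which has a record of its own. That record measured 0, 0 and 8.21 FPKM in the controls, 9.09, 6.20 and 0.781 with shEGR1#8 and 2.76, 2.98 and 2.18 with shEGR1#9. It was at 0 in the 2 controls where RAB43 was highest, and at 2.18 FPKM or more in 5 of 6 hairpin libraries. The 2 records together gave 4.94, 4.79 and 10.4 FPKM in the controls, 9.09, 6.36 and 1.23 with shEGR1#8 and 3.00, 3.22 and 2.25 with shEGR1#9. The shEGR1#8 libraries then overlapped the controls, while all 3 shEGR1#9 libraries still lay below them. The summed RAB43 difference was -0.68 with both hairpins (SE 0.434, limma adjusted p = 0.353) and -0.95 with shEGR1#9 alone (SE 0.501, limma adjusted p = 0.337), and neither was called. This sum was added after the values were seen. Without any 1 control library, RAB43 had only 2 libraries at 1 FPKM and could not be tested.

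**Figure D3:**
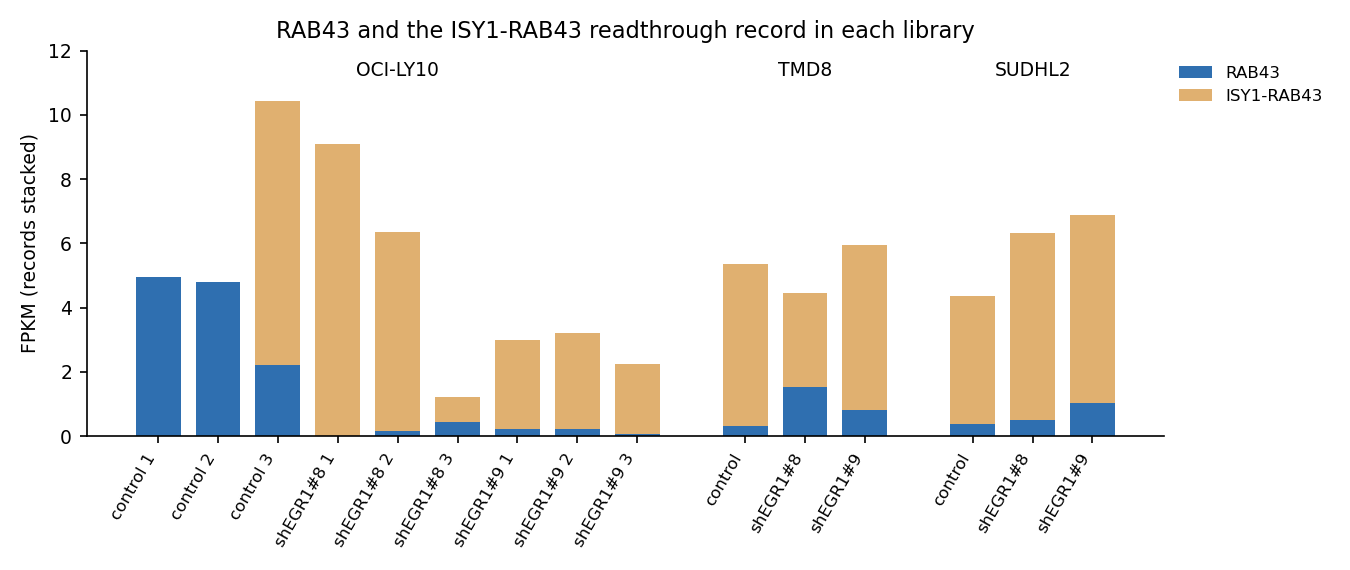
FPKM of the RAB43 record and of the ISY1-RAB43 readthrough record, stacked, in each of the 15 libraries. In OCI-LY10 the RAB43 record separates the groups, at 2.21 FPKM or more in controls and at most 0.448 in hairpin libraries, while the height of the stack separates only the shEGR1#9 libraries (2.25 to 3.22) from the controls (4.79 to 10.4).

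The promoters of the called RABs are shown because these genes moved with the hairpin labels against a transcription factor. They are from RefSeq (GRCh38.p14), the 250 bases before a transcript start, read 5′ to 3′ on the gene's strand, and 48 of the 61 members had an entry. RAB15 had none. Capitals mark GGGCGG, the GC box, and GCGNGGGCG, the EGR1 motif, on either strand, where the motifs can overlap. The windows are RAB13 at chr1:153986340-153986589 (minus strand), RAB21 at chr12:71754613-71754862 (plus strand) and RAB43 at chr3:129121805-129122054 (minus strand).
RAB13: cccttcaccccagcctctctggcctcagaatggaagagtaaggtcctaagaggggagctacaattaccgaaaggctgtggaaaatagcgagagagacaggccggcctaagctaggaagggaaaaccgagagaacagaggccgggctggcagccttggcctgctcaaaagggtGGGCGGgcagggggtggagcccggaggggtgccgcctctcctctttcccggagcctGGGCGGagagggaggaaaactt
RAB21: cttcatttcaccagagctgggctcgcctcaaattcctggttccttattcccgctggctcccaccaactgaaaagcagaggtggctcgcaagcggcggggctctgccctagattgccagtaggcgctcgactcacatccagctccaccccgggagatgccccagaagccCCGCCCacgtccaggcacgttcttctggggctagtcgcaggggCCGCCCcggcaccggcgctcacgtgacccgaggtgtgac
RAB43: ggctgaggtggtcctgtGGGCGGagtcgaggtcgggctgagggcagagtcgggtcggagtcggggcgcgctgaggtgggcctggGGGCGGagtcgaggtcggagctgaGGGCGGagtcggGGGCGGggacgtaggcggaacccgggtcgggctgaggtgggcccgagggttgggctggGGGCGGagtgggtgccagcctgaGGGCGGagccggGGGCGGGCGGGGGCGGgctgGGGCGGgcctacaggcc
The RAB13 and RAB21 windows hold 2 GC boxes each and no EGR1 motif. A second RAB13 window, not printed, holds 0 of either. The RAB43 window was chosen from 4 for that gene because it alone has an EGR1 motif, whose first base lies 31 bases before the start, beside 10 GC boxes. The other 3 RAB43 windows hold no EGR1 motif.

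The GC box was common in RAB promoters generally. In the windows of 250 bases before to 50 after the start, GGGCGG was found in 75% of 68 RAB windows and in 45.0% of all 35116 windows. The EGR1 motif GCGNGGGCG was found in 13.2% of RAB windows and 9.43% of all windows, and CCAAT in 30.9% and 34.6%. Both strands were searched. The 9 members with an EGR1 motif were RAB2B, RAB8B, RAB9B, RAB23, RAB24, RAB28, RAB34, RAB39A and RAB43. Of the 7 tested among them, the log2 differences other than that of RAB43 ran from -0.24 (RAB2B) to 0.25 (RAB8B), and RAB43 alone was called (8.56% of all genes tested were), a call that was lost in the summed records. A match of letters is not a bound site.

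The 5 most abundant members, RAB7A, RAB8A, RAB1B, RAB5C and RAB1A, did not pass the threshold of limma. RAB7A measured 156, 139 and 155 FPKM in the controls, 175, 158 and 178 with shEGR1#8 and 166, 161 and 189 with shEGR1#9. Each hairpin library lay above each control, by a margin smaller than the spread within a group. The log2 difference was 0.19 (95% interval 0.03 to 0.34, limma adjusted p = 0.135). RAB8A was at 106 ± 5.27 FPKM in controls (SD, n = 3), 102 ± 6.07 with shEGR1#8 and 105 ± 4.47 with shEGR1#9. Its log2 difference of -0.03 had an interval of -0.16 to 0.10 (limma adjusted p = 0.739). RAB1B (0.20, limma adjusted p = 0.187) and RAB1A (0.16, limma adjusted p = 0.139), the pair that starts transport from the endoplasmic reticulum, were each higher in all 6 hairpin libraries without being called. RAB5C, an early endosome RAB, had the largest difference of the members not called (0.52, 95% interval -0.14 to 1.19, limma adjusted p = 0.292), with group means of 42.6 ± 15.1 FPKM in controls (SD, n = 3), 61.6 ± 15.1 with shEGR1#8 and 62.1 ± 24.9 with shEGR1#9, and its groups overlapped.

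The sum over all 61 members followed these abundant genes. It was 897 ± 12.7 FPKM in the controls (SD, n = 3), 973 ± 27.6 with shEGR1#8 and 976 ± 38.6 with shEGR1#9, and the groups did not overlap (887 to 911, 950 to 1004 and 943 to 1019 FPKM). RAB7A gave 20.9 FPKM of the difference between hairpin and control means, RAB5C 19.3, RAB1B 13.0 and RAB21 7.89. Of these genes only RAB21 was called. RAB5C ranged from 32.6 to 84.9 FPKM across all 9 libraries.

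Non-overlapping groups were seen for 12 members. In 9 of 41 (background 12.9%) all hairpin libraries lay above the controls, namely RAB1A, RAB1B, RAB4B, RAB7A, RAB13, RAB15, RAB20, RAB21 and RAB40C. In 3 (background 8.22%) they lay below, namely RAB4A, RAB30 and RAB43, of which RAB43 passed the filter through the controls only. RAB4A, which returns receptors rapidly from early endosomes, measured 16.4, 19.0 and 19.4 FPKM in controls, 16.3, 15.6 and 14.0 with shEGR1#8 and 16.2, 14.7 and 15.6 with shEGR1#9. The gap between the lowest control and the highest hairpin library was small. Its log2 difference was -0.23 (limma adjusted p = 0.0855). The paralogue RAB4B differed by 0.28 the other way (limma adjusted p = 0.117). RAB30, a Golgi RAB, differed by -0.26 (limma adjusted p = 0.0878).

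RAB6A, the main Golgi RAB for retrograde transport, hung on 1 library. It measured 11.4, 29.9 and 27.9 FPKM in the controls and 27.1 to 31.1 in the 6 hairpin libraries. Control replicate 1 alone was low. The log2 difference was 0.41 (limma adjusted p = 0.330), and without control replicate 1 it was -0.01 (limma adjusted p = 0.952). RAB6A has a near copy, RAB6C, at 0.635 to 1.26 FPKM. Reads of such copies, and of the overlapping antisense records of RAB11B and RAB30, may be split between records, and whether counting used strand is not given in the sources used here.

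**Figure D4:**
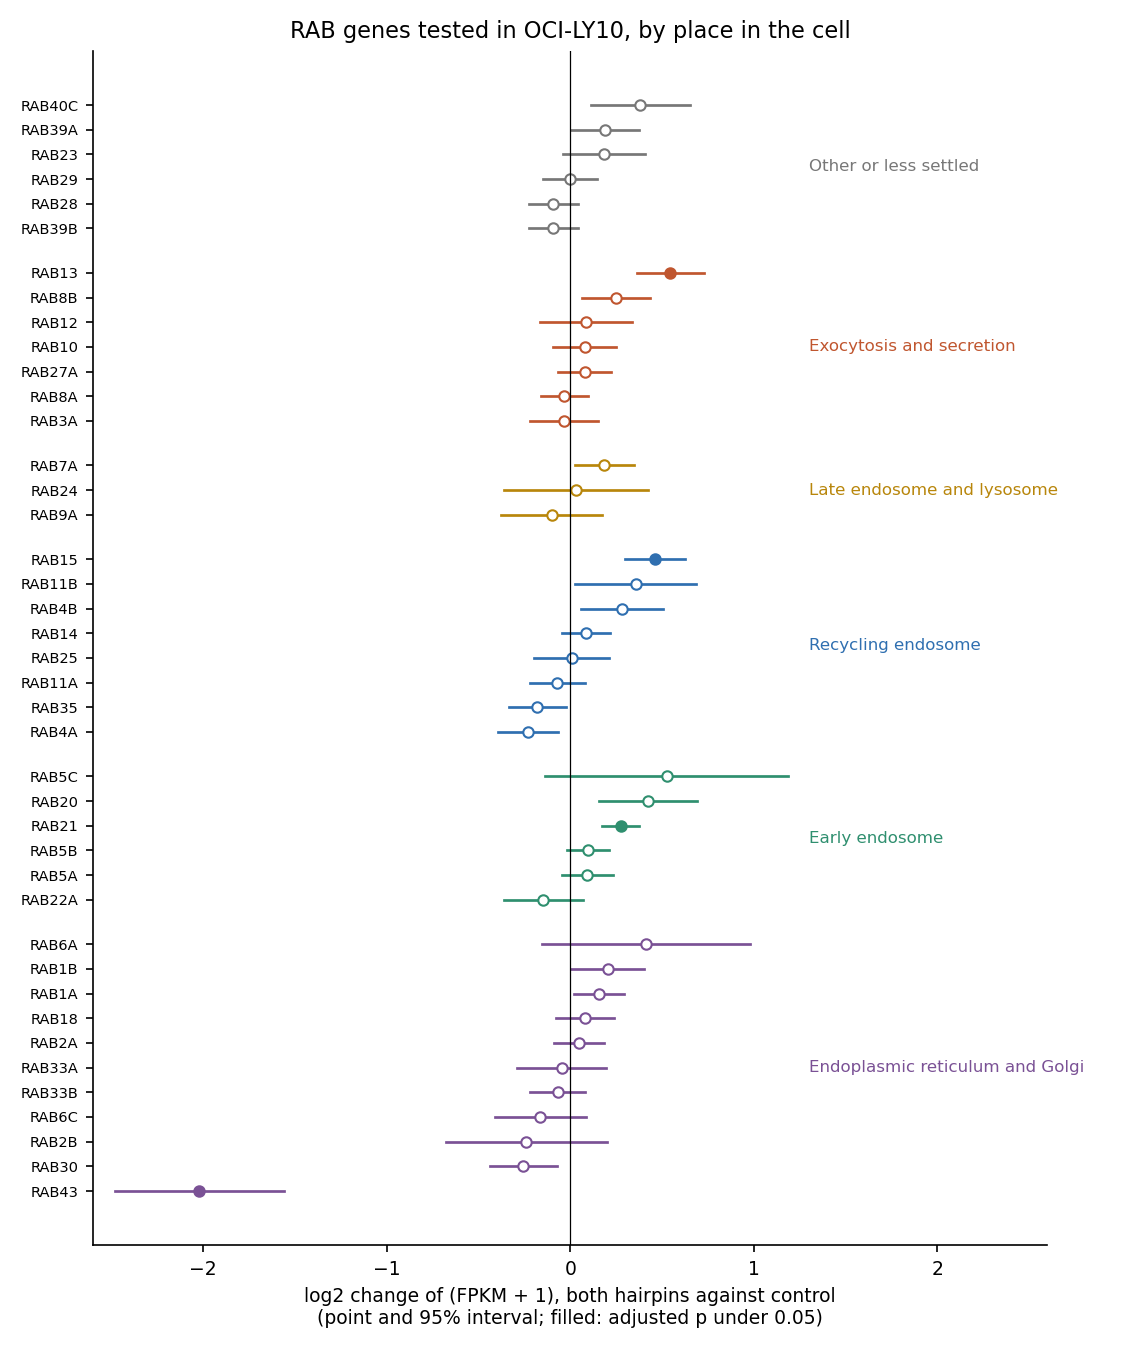
Log2 difference of the 41 tested RAB genes between both EGR1 hairpins and control in OCI-LY10, with 95% intervals from limma (filled points are called). RAB13, RAB15 and RAB21 lie above 0 and RAB43 far below, at -2.02, while the other 37 members span at most 0.52 either way.

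Alone, shEGR1#8 gave 5 called members of 41 (background 5.33%), of which RAB13, RAB15, RAB20 and RAB21 rose (background 3.71%) and RAB43 fell (background 1.62%). For shEGR1#9 there were 4 (background 5.09%), of which RAB13, RAB15 and RAB21 rose (background 3.55%) and RAB43 fell (background 1.54%). RAB43 passed the filter through the controls only, so its calls with each hairpin are no support for a fall. The direct comparison of shEGR1#9 with shEGR1#8 called 0 of 41 members (background 0.0%) with limma, and 1 member, against 267 of all 10612 genes, had an unadjusted p under 0.05. Member differences between the hairpins ran from -0.39 (RAB20) to 0.28 (RAB2B). These comparisons share the same 3 controls. Left out in turn, any control library lowered the count with shEGR1#8 alone from 5 to 0, and with shEGR1#9 alone from 4 to at most 1. Calls among all genes fell as well, from 566 to between 133 and 159 with shEGR1#8 and from 540 to between 143 and 191 with shEGR1#9. Without shEGR1#8 replicate 3 the count with both hairpins rose from 4 to 7, with RAB30, RAB35 and RAB8B added. The share called among all genes tested rose too, from 8.56% to 12.5%, so this rise is not a result about RABs.

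Under the TMD8 label, with 1 library per group and no test, more RABs were lower than higher in the hairpin libraries. Differences were centred on the median of all genes used (-0.09 and 0.00), and a member was counted when past 1.5-fold with both hairpins. Of 43 members used, 24 lay below 0 with both hairpins and 11 above. The matching shares of all genes were not counted, so these counts only describe the members. Past that fold, 10 were down (23.3%, background 12.7%) and 1 was up (2.33%, background 7.43%). Those down were RAB1A and RAB2A of the endoplasmic reticulum and Golgi route, RAB6A of the Golgi, RAB4A, RAB11A and RAB14 of recycling, RAB8B and RAB10 of exocytosis, RAB18, a RAB of lipid droplets and endoplasmic reticulum, and RAB28.

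RAB4A measured 18.7 FPKM in the TMD8 control against 7.15 and 7.84 with the hairpins, centred log2 differences of -1.19 and -1.16. RAB18 measured 13.3 against 5.68 and 5.23 FPKM (-1.01 and -1.20), and RAB2A 20.9 against 9.43 and 7.47 FPKM (-0.99 and -1.38). RAB11A measured 34.0 against 15.7 and 17.5 FPKM (-0.98 and -0.93). In each the control lay above both hairpin libraries, which the rule for members counted as down requires. RAB26, a RAB of secretory granules, was the member up, at 0.102 FPKM in the control and 1.71 and 1.84 with the hairpins (1.39 and 1.36). It passed the filter of 1 FPKM only through the hairpin libraries, so its count as the member up is no support for a rise.

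These TMD8 differences came with the control library that stood apart. For all 10 members that were down, which lie above their own hairpin libraries by the rule, the TMD8 control also lay above the 3 SUDHL2 libraries. That share was not counted among all genes that were down, so it is not a result about RABs. The TMD8 control lay above all 5 other libraries of both tables for 21 of the 43 members used (48.8%) and for 32.2% of 11806 genes. RAB2A, for example, stood at 6.12 to 9.50 FPKM in SUDHL2, close to the TMD8 hairpin libraries. The part of the control library in the differences was not tested, since the label has no other control. The B-cell markers summed to 920 FPKM in the TMD8 control and to 800.1 and 1043 with the hairpins, and the T and NK cell markers, with CD3D, CD2 and GNLY at 0, to 1.15, 3.72 and 2.50.

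**Figure D5:**
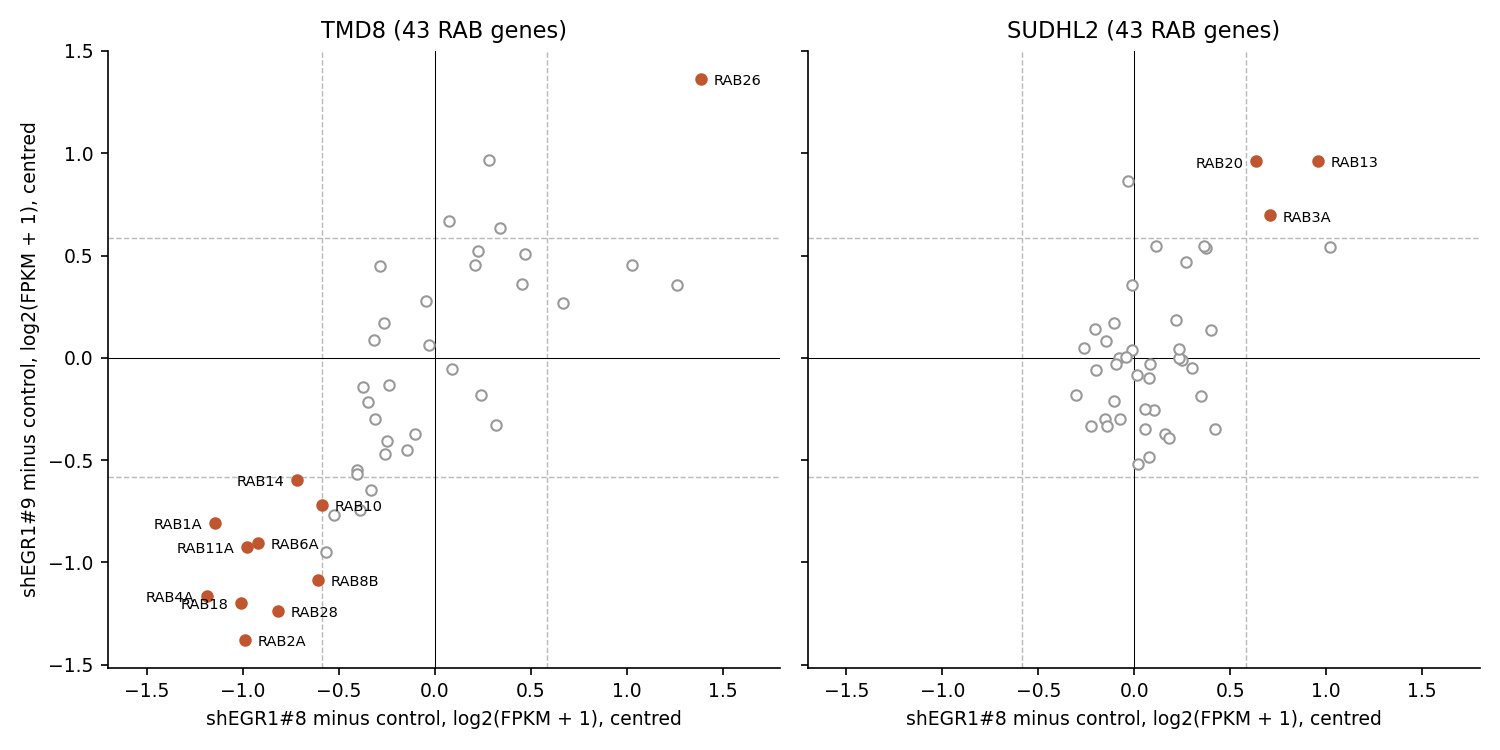
Centred log2 difference from the control library for each RAB gene used, shEGR1#8 on the horizontal axis and shEGR1#9 on the vertical axis, under the TMD8 and SUDHL2 labels. Dashed lines mark 1.5-fold, and filled points are past it with both hairpins in 1 direction. TMD8 has 10 members down and RAB26 up, and SUDHL2 has RAB3A, RAB13 and RAB20 up.

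Under the SUDHL2 label 3 of 43 members were up past 1.5-fold (6.98%, background 3.71%) and 0 were down (background 2.21%). RAB13 measured 4.28 FPKM in the control and 9.33 and 9.37 with the hairpins, centred log2 differences of 0.96 and 0.96. RAB20 measured 1.13 against 2.33 and 3.17 FPKM (0.64 and 0.96). RAB3A, the RAB of synaptic vesicle and granule release, measured 5.15 against 9.11 and 9.04 FPKM (0.71 and 0.70). With 1 library per group these differences have no replicate check. The B-cell markers summed to 937 FPKM in the SUDHL2 control and to 1014 and 1021 with the hairpins. The T and NK cell markers, with CD3D, CD3E and GNLY at 0, summed to 1.86, 3.10 and 2.18 FPKM, and the fibroblast and epithelial markers, with EPCAM at 0, to 6.45, 9.67 and 8.42 FPKM. Their part in the RAB differences was not tested.

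Of the members called in OCI-LY10, RAB13 was higher with both hairpins under both other labels, at 4.997 FPKM in the TMD8 control against 6.81 and 7.54 (0.47 and 0.51). RAB15 was so too, by 0.67 and 0.27 in TMD8 and by 0.37 and 0.54 in SUDHL2. RAB21 had no common direction, at 0.32 and -0.33 in TMD8 and at 0.30 and -0.05 in SUDHL2. RAB43 went the other way from OCI-LY10, by 1.03 and 0.45 in TMD8 and by 0.11 and 0.55 in SUDHL2. In both it passed the filter only through a hairpin library, so this is no support for a rise. Among all genes called in OCI-LY10, 62.2% of 833 kept their direction with both hairpins in TMD8 and 76.7% of 832 in SUDHL2.

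The partners of the RAB cycle were read from lists of genes that prenylate, deliver, load, inactivate or bind RABs. Of 121 tested partners 7 rose and 3 fell with both hairpins (8.26%, against 8.56% of all genes), and their median log2 difference was 0.07. RILPL2, an effector that binds phosphorylated RAB8A and RAB10, fell the most clearly. It measured 47.2, 46.4 and 46.2 FPKM in the controls, 31.4, 32.1 and 35.0 with shEGR1#8 and 31.8, 31.8 and 33.6 with shEGR1#9. The groups were far apart against a spread of at most 1.91 FPKM (SD), and RILPL2 fell by 0.50 on the log2 scale (SE 0.050, limma adjusted p = 0.000749).

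RAB11FIP1, a RAB11 effector in receptor recycling, rose. It measured 28.6, 29.2 and 30.7 FPKM in the controls, 38.1, 40.2 and 35.3 with shEGR1#8 and 40.6, 40.9 and 38.0 with shEGR1#9. No libraries overlapped, and the log2 difference was 0.39 (SE 0.056, limma adjusted p = 0.00489). Among the 32 tested effectors and tethers MICAL1, an actin-oxidising enzyme that binds RABs, also rose (0.52, limma adjusted p = 0.0191). RILPL2 and RAB11FIP1 were called in all 18 alternatives, and MICAL1 lost its call in 4.

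Of 29 tested exchange factors 3 rose (5.84% of all genes did). They were DENND1C, which acts on RAB35 (0.49, limma adjusted p = 0.00891), DENND4C, which acts on RAB10 (0.28, limma adjusted p = 0.0268), and MADD, which acts on RAB3 and RAB27 (0.20, limma adjusted p = 0.0498). Of 29 tested GTPase-activating proteins TBC1D17 rose (0.50, limma adjusted p = 0.0285), and TBC1D4, known for holding back glucose transporter vesicles, fell by 0.38 (limma adjusted p = 0.0392). CHML, a RAB escort protein needed for prenylation, fell by 0.37 (limma adjusted p = 0.0460) among 8 tested genes of prenylation and GDP dissociation. LRRK1, a kinase that phosphorylates RAB7A, rose by 0.41 (limma adjusted p = 0.0127). Of the 2 tested genes among RAB kinases and phosphatase, the other, LRRK2, was not called (0.05, limma adjusted p = 0.783). None of 14 TRAPP subunits, which load RAB1 and its relatives, and none of 7 tested RAB-like genes was called by limma, where 8.56% of all genes were. DENND1C and LRRK1 lost their calls in 3 of 18 alternatives, DENND4C and TBC1D17 in 7, TBC1D4 in 9, CHML in 10 and MADD in 13. Under the TMD8 and SUDHL2 labels, without a test, DENND1C, MADD, TBC1D17 and RAB11FIP1 kept their direction in every hairpin library. In SUDHL2, TBC1D4 went up (centred log2 differences 0.34 and 0.37) and DENND4C down (-0.29 and -0.62). CHML, MICAL1, RILPL2 and LRRK1 did not keep their direction in every hairpin library.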

How the data were processed

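Per the labels' protocols a TruSeq kit was used for the RNA libraries, and the submitters' processing notes name Bowtie2, HISAT and StringTie with build hg19. No version, role, annotation or read total is stated in the sources. The authors deposited 1 table per cell line, whose values were read as FPKM from the values themselves, since no label or header names the unit. Depth is therefore unknown and no counting interval is given. The worth of 1 read relative to control replicate 1, read from low values, spanned -0.37 to 0.60 log2 units in OCI-LY10, where higher means shallower. Lines with a repeated name (4, 10 and 10) and 430 lines of the SUDHL2 table that belong to a joined line and a copied end were left out. The 4 ChIP and input samples were not used.

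For OCI-LY10, log2(FPKM + 1) of all genes with at least 1 FPKM in 3 of 9 libraries entered limma 3.58.1 under R 4.3.3, with a mean per group, a mean-variance trend and Benjamini-Hochberg adjustment. The script was tested on simulated data. TMD8 and SUDHL2 have 1 library per group, so differences were computed without a test for genes with at least 1 FPKM in 1 library. Other steps used Python 3.11.15. Named genes were the called members, the 5 members of highest level, the member nearest to a call, the members past 1.5-fold in TMD8 and SUDHL2 (5 per table with values), and called partners. RAB2B, RAB4A, RAB4B, RAB6A and RAB30 in OCI-LY10, members named for their levels or motifs, and the summed readthrough records were chosen after values were seen. The members and lists were chosen with earlier results of these data known. Alternatives were another pseudocount, filters, scalings, weights, a replicate block and left-out libraries.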

Additional observations from a re-analysis of the deposited data

Results flagged for a closer look

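RAB43 went in opposite directions in the cell lines. The RAB43 record was lower in all 6 hairpin libraries of OCI-LY10 and higher in the hairpin libraries of the other labels, with centred log2 differences of 1.0253 and 0.4513 for shEGR1#8 and shEGR1#9 under the TMD8 label and of 0.1137 and 0.5488 under the SUDHL2 label. This difference between the lines was not tested. RAB43 reached 1 FPKM only in the controls in OCI-LY10, only with shEGR1#8 in TMD8 and only with shEGR1#9 in SUDHL2. It thus passed each filter only through a group where it is high, so the opposite directions are no support for a change. The RAB43 levels behind this difference were 0.315, 1.52 and 0.803 FPKM in TMD8 and 0.388, 0.510 and 1.04 FPKM in SUDHL2. The readthrough record ISY1-RAB43 was higher than RAB43 in each of these libraries, at 5.04, 2.95 and 5.15 FPKM in TMD8 and 3.97, 5.81 and 5.84 FPKM in SUDHL2. With both records summed the levels were 5.35, 4.47 and 5.95 FPKM in TMD8 and 4.36, 6.32 and 6.89 FPKM in SUDHL2.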

How the results depend on the processing

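The count of called RAB members with both hairpins was 4, and it was 11 with array weights (weights per library) and 3 to 7 when 1 library was left out. The matching shares of all genes called were 8.56%, 18.0% and 2.65 to 12.5%. With shEGR1#8 alone the member count was 5, and it was 3 with quantile normalization and 3 with the replicate block. It was 0 without the replicates numbered 3 and 0 to 6 with 1 library left out. In the same order, the shares of all genes were 5.33, 4.43, 3.29, 1.43 and 1.26 to 6.61%. With shEGR1#9 alone the member count was 4, and it was 11 with array weights. It was 1 without the replicates numbered 3 and 0 to 7 with 1 library left out. Here the shares of all genes were 5.09, 18.4, 1.79 and 1.35 to 10.9%. The comparison between the hairpins called 0 members in each alternative that was run, and at most 0.0851% of all genes. The partner count of 10 became 6 without a filter on low values and 26 with array weights. It was 3 without the replicates numbered 3 and 2 to 20 with 1 library left out. Against the main 8.56%, the shares of all genes were then 4.87, 18.0, 3.51 and 2.65 to 12.5%. The TMD8 count of 11 became 17 with a pseudocount of 0.1, 7 with at least 1 FPKM in all 3 libraries and 3 with a fold of 2. The SUDHL2 count of 3 became 0 with a fold of 2. Shares of all genes under these TMD8 and SUDHL2 alternatives are not given here, so these counts only describe the members. RAB6A turned from 0.41 to -0.009371 without control replicate 1 and reached 0.6465 without control replicate 2.

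All genes called split into 620 that rose and 288 that fell, but into 492 and 407 with median-ratio scaling and 444 and 367 with quantile normalization. RAB13, RAB15 and RAB21 kept their direction under both. Deviations of same-numbered libraries correlated by -0.19 to 0.06 between control and hairpin groups, so the numbers were not taken to pair these, and by 0.13 to 0.26 between the hairpin groups. With a replicate block, 4 members were called with both hairpins and 775 genes in all. RAB15 and RAB20 lost their call with shEGR1#8 alone and RAB21 with shEGR1#9 alone, and the hairpins against each other still called 0 genes. Without any 1 control library, all-gene calls fell from 908 to between 281 and 313. Which cause lies behind these shifts was not tested. With unknown depth, members below about 1 FPKM give no firm value.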

Other observations

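RAB2B, a RAB of the endoplasmic reticulum and Golgi, fell into separate levels, the lower seen only in hairpin libraries and the higher in libraries of every group. It stood at 4.52, 4.74 and 4.70 FPKM in shEGR1#8 replicates 1 and 3 and shEGR1#9 replicate 3, and at 6.94 to 8.78 FPKM in the other 6 OCI-LY10 libraries. RAB5C stood at 32.6 to 45.6 FPKM in control replicates 1 and 3, shEGR1#8 replicate 3 and shEGR1#9 replicate 1, and at 59.9 to 84.9 FPKM in the other 5. These members were chosen after their values were seen.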
